A study of Mus musculus with 4 samples.

Results

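The 10 genes described here encode 4 Notch receptors (Notch1, Notch2, Notch3 and Notch4), the ligands Jag1 and Dll4, and the target genes Hes1, Hey1, Heyl and Nrarp. They were chosen by name, as known parts of the pathway, with earlier results of these data known. Every probe set annotated with exactly 1 of these symbols was kept. That gave 21 probe sets for the 10 genes, out of 45037 probe sets and 18193 genes with a single-symbol probe set. The brightest probe set over the 4 arrays represents each gene, and the others serve as a check on it.

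RNA was measured on 2 arrays labelled VEGFD and 2 labelled Apex, all from mice. Flank tumours of the human line 293EBNA, an embryonic kidney derivative, carried the APEX vector with the VEGFD gene in the VEGFD group and the empty APEX vector in the Apex group, and both were grown to 2000 mm3. Vascular endothelial growth factor D, the product of VEGFD, is secreted and acts on lymphatic and blood vessel endothelium. Collecting lymphatic vessels that drained the tumour were found with a blue dye and dissected, and endothelial cells were taken by magnetic sorting, so the comparison asks how these draining vessels differ when the tumour makes VEGF-D. The mouse strain, sex and age and the number of mice behind each array are absent from the labels read for this work, and the extraction protocol speaks of lymph node endothelium where the other labels name collecting lymphatics. The p-values set the difference between groups against the spread between arrays labelled as biological replicates.

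Notch receptors are transmembrane proteins that are cut after a ligand on a neighbouring cell binds them, first by an ADAM protease and then by gamma-secretase. The freed intracellular part enters the nucleus, joins the DNA-binding protein RBPJ and switches on genes such as those of the Hes and Hey repressors and of Nrarp, a feedback inhibitor. In vessels the pathway is known for restraining endothelial sprouting through Dll4, for roles in lymphatic valve formation, and for keeping smooth muscle and pericytes differentiated through Notch3.

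None of the 8 tested genes of the set passed a limma test between the groups after adjustment over all genes. With 2 arrays a group, this does not show that their levels were equal. Signals are linear probe set intensities as deposited. Changes were computed as VEGFD minus Apex after taking log2(signal + 16), each with its SE (standard error) from limma over 2 arrays a group. Adding 16 understates the change of dim genes. Genes were tested when their mean over the 4 arrays reached the median level of the array, equal to a signal of 25.3, which kept 11677 genes and 8 of the 10 members. Notch4 and Hey1 lay below it and are given by their signals. In limma, 0 of the 8 tested members passed an adjusted p of 0.05, and 0 of 11677 genes (0%) did so. At an unadjusted p under 0.05 there was 1 of the 8 members (Notch3), against 666 of all genes (5.7%). An exact permutation test of 2 arrays against 2 cannot go below p = 0.333, so no single gene could pass it.

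Without a test, the 2 VEGFD values lay on 1 side of both Apex values for 4 of the 8 tested members, against 38.5% of all tested genes. A difference of at least 2-fold without overlap was found for 1 member, Notch3, which was lower, against 3.88% of all tested genes (2.79% lower and 1.09% higher in VEGFD arrays). Over all genes this was 127 higher and 326 lower, and after median centring of the arrays 192 higher and 239 lower. The median log2 change was -0.10 over the 8 members and -0.04 over all tested genes, with 4 members higher and 4 lower. Centring the arrays moved the median of all genes to 0.09 and the members with it. The 4 arrays did not group by label. Over all tested genes, VEGFD replicate 1 had a correlation of 0.970 with Apex replicate 1 and of 0.918 with VEGFD replicate 2. The correlation between the 2 Apex arrays was 0.955.

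The endothelial label was checked against 16 pan-endothelial markers. The number at or above 25.3 was 8 and 4 in VEGFD replicates 1 and 2, against 7 and 15 in Apex replicates 1 and 2. Their summed signal was 1362 and 611 in VEGFD arrays, against 890 and 4885 in Apex arrays. Such sums rest mostly on the brightest genes, and Emcn alone had 2670 in Apex replicate 2. Pecam1, Cdh5, Tie1 and Erg, which define endothelium, were at most 12.98 on the other arrays and between 33.4 and 146 in Apex replicate 2. Of the 16 markers, 13 were highest in Apex replicate 2, and Eng, Kdr and Tek were not. Eng had 829 and 271 in VEGFD arrays and 417 and 765 in Apex arrays. Kdr had 90.8 and 55.4 in VEGFD arrays and 78.8 and 75.7 in Apex arrays. Tek had 86.1 and 20.3 in VEGFD arrays and 101 and 43.9 in Apex arrays. The 10 measured lymphatic markers summed to 1757 and 2397 in VEGFD arrays and 1392 and 2852 in Apex arrays. Pdpn made up most of each sum, with 1237 and 1715 in VEGFD arrays and 963 and 1622 in Apex arrays. Of the 10, 4 were highest in VEGFD replicate 2 and 6 in Apex replicate 2. Prox1, the defining transcription factor gene of lymphatic endothelium, was below 25.3 on every array, at 3.19 and 5.94 in VEGFD arrays and 11.2 and 11.6 in Apex arrays. Reln, the reelin gene, had 27.3 and 34.1 in VEGFD arrays and 8.97 and 20.4 in Apex arrays. Itga9, an integrin gene, had 86.2 and 88.7 in VEGFD arrays and 85.3 and 55.0 in Apex arrays. Reln and Itga9 were highest in VEGFD replicate 2, while Lyve1, Stab1, Flt4 and Mmrn1 were highest in Apex replicate 2. Lyve1 had 22.02 and 14.5 in VEGFD arrays and 16.5 and 151 in Apex arrays. Stab1 had 3.3 and 21.4 in VEGFD arrays and 16.5 and 348 in Apex arrays. Flt4 had 161 and 145 in VEGFD arrays and 42.6 and 247 in Apex arrays. Fibroblast markers, 10 genes, summed to 21994 and 21439 in VEGFD arrays and 22267 and 18931 in Apex arrays. These sums do not show single genes such as Dpt, at 204 and 168 in VEGFD arrays and 2725 and 2407 in Apex arrays. Of the 10, 5 were highest in VEGFD replicate 1, 2 in VEGFD replicate 2, 2 in Apex replicate 1 and 1 in Apex replicate 2. The arrays are called by their labels, and the share of endothelial cells cannot be told apart from the level per cell in any value below.

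**Figure D1:**
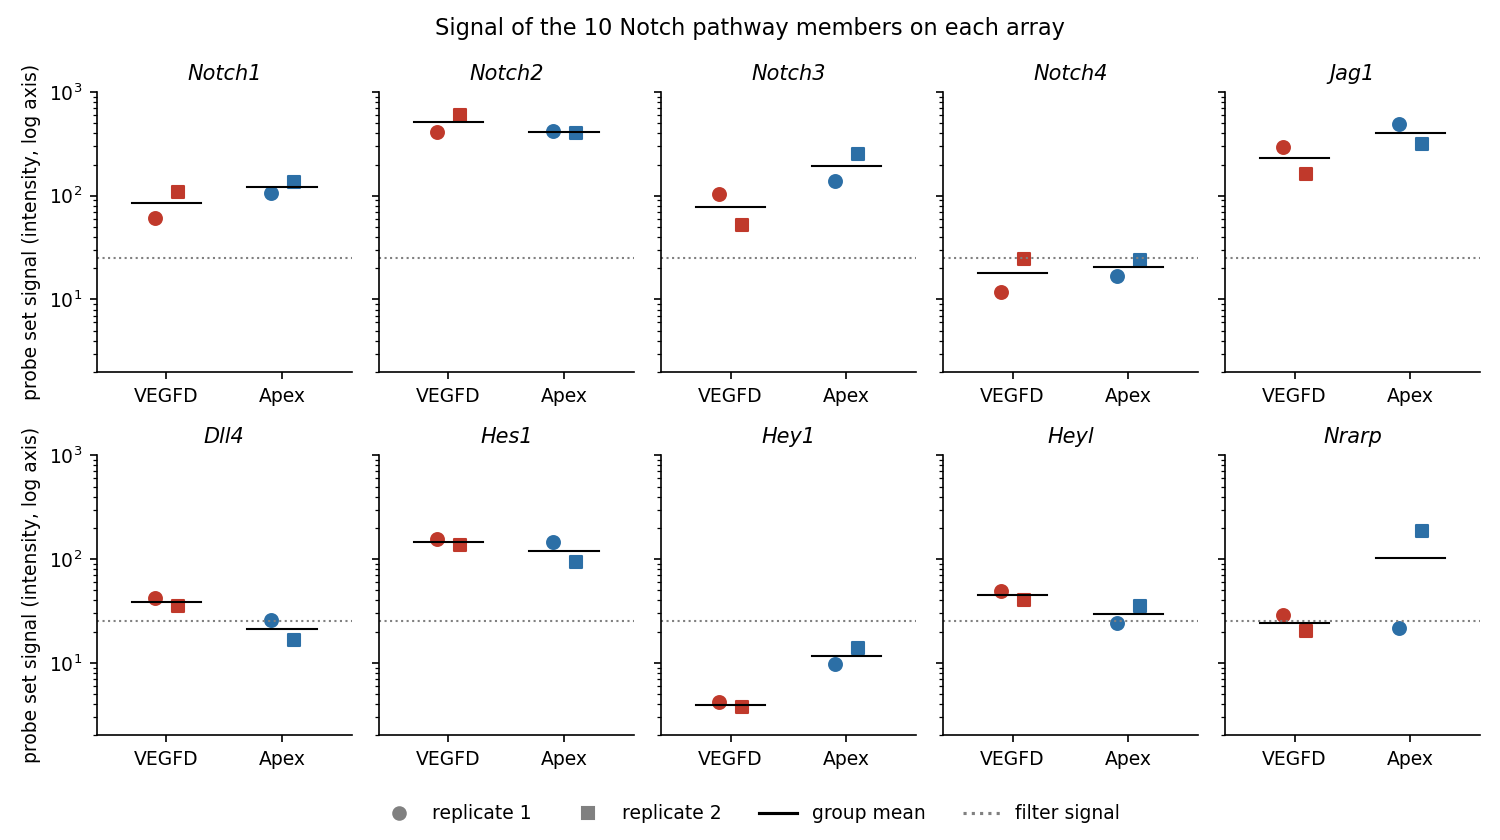
Probe set signal (log axis) of the 10 genes on each array, VEGFD on the left and Apex on the right of each panel, with circles for replicate 1, squares for replicate 2, bars for group means and a dotted line at the filter signal of 25.3. The groups do not overlap for Notch3, Jag1, Dll4, Hey1 and Heyl, and Nrarp stands out in Apex replicate 2 alone, at 184.

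Among the receptors, Notch3 had the largest difference. Notch3 encodes the receptor best known from vascular smooth muscle and pericytes. Its signals were 103 and 51.9 in VEGFD arrays, against 137 and 253 in Apex arrays. Both VEGFD values lay below both Apex values, and each group spanned about the same distance between its own replicates, 0.81 on the log2 scale. The log2 change was -1.17 ± 0.42 (SE), with a 95% interval from -2.24 to -0.11 and a limma adjusted p of 0.823. It was -0.77 without VEGFD replicate 2, -0.77 without Apex replicate 2, and -1.58 without either of the other arrays, so the size rested on those arrays. Since the groups did not overlap, leaving out 1 array could not change the sign. The representing probe set is of the kind that Affymetrix names for matching several transcripts. The other Notch3 probe set was dim, at 5.47 and 13.2 in VEGFD arrays and 16.2 and 36.7 in Apex arrays, with a log2 difference of -0.72 in the same direction and no overlap.

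Markers of mural cells were read beside Notch3. Pdgfrb, which encodes the PDGF receptor of pericytes and also of fibroblasts, had 2123 and 1268 in VEGFD arrays, against 2978 and 3479 in Apex arrays, the same order over the 4 arrays as Notch3. The log2 change of Pdgfrb was -0.97 ± 0.31. Cspg4 and Rgs5, from the same marker list, did not keep that order. Cspg4 had 61.7 and 299 in VEGFD arrays, against 109 and 124 in Apex arrays. Rgs5 had 25.2 and 18.0 in VEGFD arrays, against 20.4 and 46.0 in Apex arrays. The contractile and cytoskeletal genes did not share 1 order. Tagln, which encodes transgelin, had 1632 and 5553 in VEGFD arrays, against 454 and 746 in Apex arrays, and Acta2, smooth muscle actin, had 4840 and 8802 in VEGFD arrays, against 3525 and 4096 in Apex arrays. Des, which encodes desmin, had 10.1 and 51.1 in VEGFD arrays, against 85.0 and 94.0 in Apex arrays. Of all 12 smooth muscle and pericyte markers, 7 were highest in VEGFD replicate 2, the array where Notch3 was lowest, 1 in VEGFD replicate 1 and 4 in Apex replicate 2. Their summed signal was 9425 and 18617 in VEGFD arrays and 7621 and 8887 in Apex arrays. Myh11, Kcnj8 and Abcc9 were below 25.3 on every array. The part of these cells in the Notch3 difference was not tested.

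Notch1, the receptor most often linked to endothelial Notch signalling, had signals of 60.5 and 109 in VEGFD arrays, against 105 and 136 in Apex arrays. The groups overlapped, since VEGFD replicate 2 lay above Apex replicate 1. The log2 change was -0.48 ± 0.34 (95% interval -1.33 to 0.37, limma adjusted p = 0.826), and leaving out VEGFD replicate 1 gave -0.13 and VEGFD replicate 2 -0.83. A second Notch1 probe set gave 9.95 and 104 in VEGFD arrays and 74.7 and 84.9 in Apex arrays, a log2 difference of -0.78, so its low mean rested on VEGFD replicate 1.

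Notch2, a receptor expressed in many cell types, gave 413 and 607 in VEGFD arrays, against 418 and 401 in Apex arrays. Its signal in VEGFD replicate 1 lay between the Apex signals, and VEGFD replicate 2 alone was higher. The log2 change was 0.28 ± 0.27 (95% interval -0.40 to 0.96, limma adjusted p = 0.844) and 0.01 without VEGFD replicate 2. The second Notch2 probe set opposed it. That set had 26.2 and 17.2 in VEGFD arrays and 64.9 and 42.5 in Apex arrays, without overlap and with a log2 difference of -0.88, and averaging both sets gave -0.30. The direction for Notch2 therefore depended on the probe set.

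Notch4, an endothelial receptor, stayed below 25.3 on every array in its representing probe set. Its signals were 11.9 and 24.4 in VEGFD arrays, against 16.7 and 24.2 in Apex arrays. These values overlapped, with a log2 difference of -0.11. A second probe set had 5.54 and 1.97 in VEGFD arrays and 11.4 and 44.0 in Apex arrays. It reached 25.3 in Apex replicate 2 alone, the array where most pan-endothelial markers were highest. The remaining set had 17.4 and 7.71 in VEGFD arrays and 1.97 and 3.73 in Apex arrays.

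**Figure D2:**
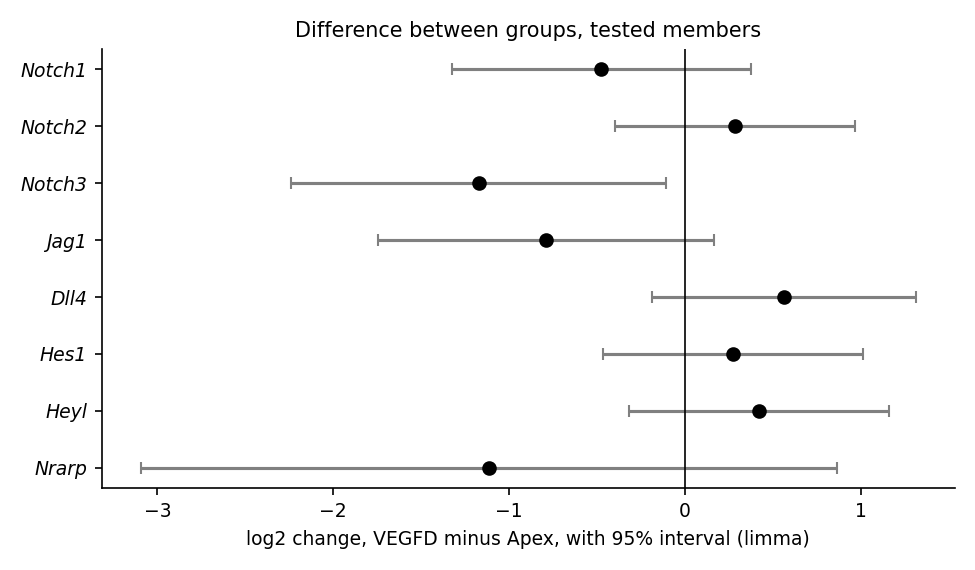
Log2 change, VEGFD minus Apex, of the 8 tested members with the 95% interval of the limma fit (2 arrays in each group). The interval of Notch3, from -2.24 to -0.11, leaves out 0, and that of Nrarp, from -3.095 to 0.86, is the widest.

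Neither ligand gene passed the test. By its brightest probe set Jag1 was lower and Dll4 higher in VEGFD arrays without overlap, a separation found for 38.5% of all tested genes, and for each gene another probe set had the opposite sign. Jag1 encodes Jagged-1, a ligand made by endothelium and by mural cells. Its signals were 297 and 162 in VEGFD arrays, against 487 and 316 in Apex arrays. Both VEGFD values were lower, though VEGFD replicate 1 and Apex replicate 2 were close. The log2 change was -0.79 ± 0.38 (95% interval -1.75 to 0.16, limma adjusted p = 0.823). It was -0.39 without VEGFD replicate 2, -0.49 without Apex replicate 1, -1.09 without Apex replicate 2 and -1.20 without VEGFD replicate 1. The other Jag1 probe sets were dimmer and gave log2 differences of -0.26 and 0.11, and the mean of all 3 gave -0.31.

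Dll4 encodes Delta-like 4, the ligand that endothelial tip cells present. Its signals were 42.0 and 34.9 in VEGFD arrays, against 25.8 and 16.5 in Apex arrays. Both VEGFD values were higher, and Apex replicate 2, where most pan-endothelial markers were highest, had the lowest Dll4 signal. This gave a log2 change of 0.56 ± 0.30 (95% interval -0.19 to 1.31, limma adjusted p = 0.823). Adding 64 in place of 16 gave 0.27 and adding 1 gave 0.86, and all signals lay near the filter. A second, dim probe set had 2.03 and 5.82 in VEGFD arrays and 3.25 and 32.2 in Apex arrays, a log2 difference of -0.62, with its highest signal in Apex replicate 2. The Dll4 probe sets thus put the arrays in different orders.

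By their means, Hes1 and Heyl were higher in VEGFD arrays and Hey1 and Nrarp lower. Hes1 encodes a helix-loop-helix repressor and is the most widely expressed target of the pathway. It had signals of 156 and 135 in VEGFD arrays, against 145 and 94.5 in Apex arrays. The groups overlapped, and Apex replicate 2 was the low value. Hes1 had a log2 change of 0.27 ± 0.29 (95% interval -0.46 to 1.01, limma adjusted p = 0.861) and 9.4e-04 without Apex replicate 2. Hes1 had 1 probe set, so no second set checks it.

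Heyl, a Hey family repressor known from mural cells, had 49.4 and 40.1 in VEGFD arrays, against 24.1 and 35.1 in Apex arrays. Both VEGFD values were higher, with little distance between VEGFD replicate 2 and Apex replicate 2. Heyl had a log2 change of 0.42 ± 0.29 (95% interval -0.32 to 1.16, limma adjusted p = 0.826), 0.25 without Apex replicate 1 and 0.22 with a pseudocount of 64. Its other probe sets stayed at or below 8.96, with log2 differences of 0.22 and -0.26. Heyl and Notch3, both known from mural cells, differed in opposite directions.

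Hey1, the family member known from arterial endothelium, was dim on every array. Its signals were 4.15 and 3.73 in VEGFD arrays, against 9.70 and 13.7 in Apex arrays. These did not overlap, with a log2 difference of -0.47, but all lay below 25.3, where no detection call was used.

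Nrarp had the largest spread of the 10 genes, 2.47 on the log2 scale. Its product binds the Notch intracellular domain and RBPJ and limits the signal. The signals were 28.6 and 20.3 in VEGFD arrays, against 21.8 and 184 in Apex arrays. Apex replicate 1 lay between the VEGFD arrays, and Apex replicate 2 alone stood above them. For Nrarp this was a log2 change of -1.12 ± 0.79 (95% interval -3.095 to 0.86, limma adjusted p = 0.826). Leaving out Apex replicate 2 gave 0.09 and leaving out Apex replicate 1 gave -2.32, and Nrarp passed the filter through Apex replicate 2. The second probe set, at 5.59 and 2.49 in VEGFD arrays and 7.14 and 16.9 in Apex arrays, was also highest in Apex replicate 2.

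**Figure D3:**
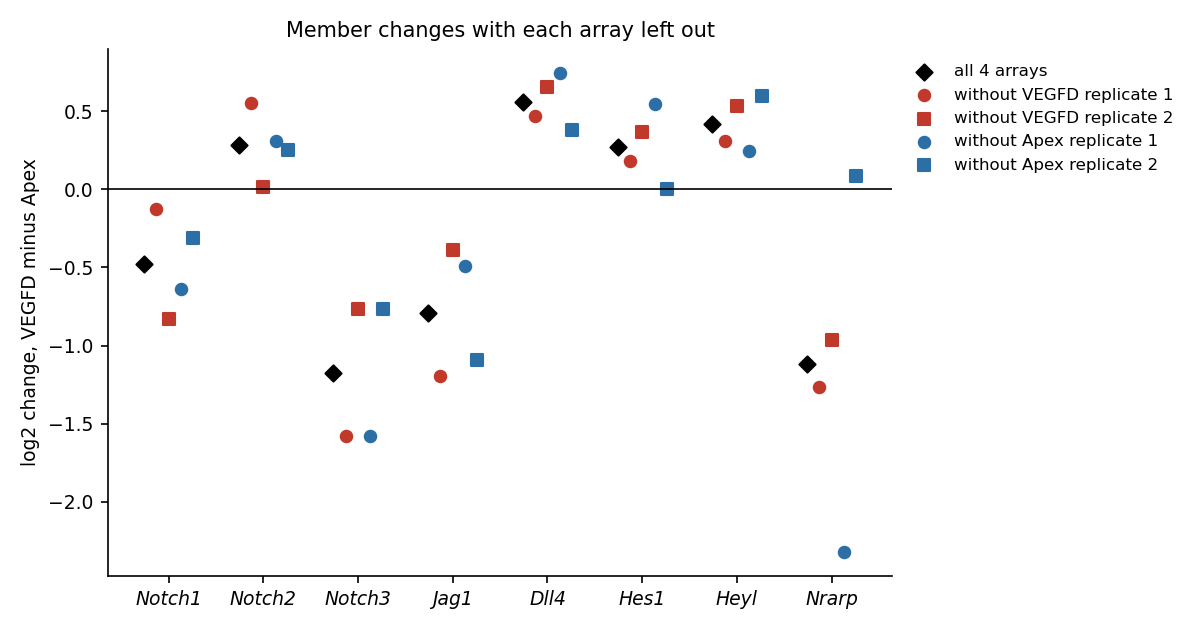
Log2 change, VEGFD minus Apex, of the 8 tested members on all 4 arrays (diamonds) and with each array left out (red for VEGFD, blue for Apex arrays, circles for replicate 1 and squares for replicate 2). The value of Nrarp runs from -2.32 to 0.09 and changes sign without Apex replicate 2, while Notch3 and Jag1 stay below 0 and Dll4 and Heyl above it. The groups do not overlap for Notch3, Jag1, Dll4 and Heyl, so leaving out 1 array cannot change their sign.

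Of the 16 pan-endothelial markers, 13 were highest in Apex replicate 2, as Nrarp was. Emcn, which encodes endomucin, had 106 and 24.0 in VEGFD arrays, against 48.4 and 2670 in Apex arrays. Cdh5, the gene of VE-cadherin, had 4.23 and 3.11 in VEGFD arrays, against 12.98 and 146 in Apex arrays. Apex replicate 2 also had the highest median signal, 30.4, against 23.8 to 27.0 on the other arrays. The share of all genes that were highest there was not counted. Notch1, Notch3, Hey1 and Nrarp were highest in this array, 4 of the 10 genes, while Dll4, Hes1 and Notch2 were lowest there. The part of endothelial content in these values was not tested.

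**Figure D4:**
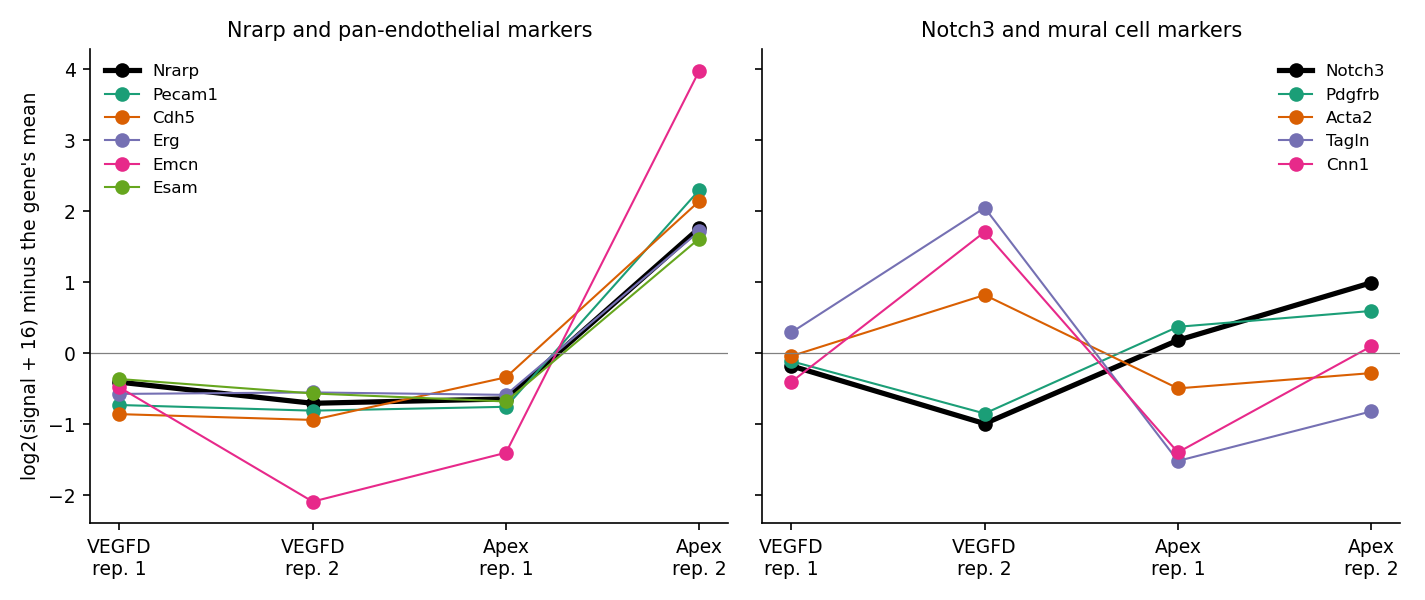
Values of log2(signal + 16) minus each gene's mean over the 4 arrays, with lines joining a gene's values, for Nrarp with 5 pan-endothelial markers (left) and Notch3 with 4 mural cell markers (right). Nrarp and these 5 endothelial markers are highest in Apex replicate 2, while Eng, Kdr and Tek, which are not drawn, are not. Pdgfrb keeps the order of Notch3 while Tagln and Acta2 are highest in VEGFD replicate 2.

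Patterns most like those of the 3 members with the largest range were sought over the 4 arrays. The measure was Euclidean distance between values centred on each gene's mean. Tested genes were searched, leaving out predicted genes and genes named only by a clone or locus number. For Nrarp the nearest were Lyve1 (distance 0.0326), a hyaluronan receptor gene of lymphatic endothelium, Gbp2b (0.136), a guanylate-binding protein gene, and Esam (0.210), an endothelial adhesion gene. Lyve1 had 22.02 and 14.5 in VEGFD arrays, against 16.5 and 151 in Apex arrays. Esam had 26.7 and 21.1 in VEGFD arrays, against 18.3 and 153 in Apex arrays. Like Nrarp, both passed the filter through Apex replicate 2. For Notch3, whose range was 1.99, the nearest genes were Ctsk (0.0765), Rgs2 (0.105) and Cadm1 (0.126). These encode the protease cathepsin K, a regulator of G protein signalling and a cell adhesion protein. Ctsk had 752 and 391.7 in VEGFD arrays, against 939 and 1617 in Apex arrays. Jag1, with a range of 1.497, was nearest to Mgam (0.0847), Nudt17 (0.0921) and Mndal (0.1105). Each distance rests on 4 arrays, and the genes searched were the 11677 tested genes without those left out.

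Upstream sequences are shown for Nrarp and Notch3, the 2 members with the largest range, and for Hes5, a classic Notch target with a pair of RBPJ sites. They are the 250 bases before the transcription start from RefSeq (GRCm38.p6), 5′ to 3′ on the strand of the gene. In Nrarp (chr2:25180508-25180757, plus strand) and Notch3 (chr17:32166891-32167140, minus strand), capitals mark the N-box CACNAG on either strand, the motif that Hes repressors bind.
Nrarp: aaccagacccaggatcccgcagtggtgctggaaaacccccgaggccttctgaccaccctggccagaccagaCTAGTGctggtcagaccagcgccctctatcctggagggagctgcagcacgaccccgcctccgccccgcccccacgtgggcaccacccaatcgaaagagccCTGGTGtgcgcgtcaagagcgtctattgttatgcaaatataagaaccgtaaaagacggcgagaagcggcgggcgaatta
Notch3: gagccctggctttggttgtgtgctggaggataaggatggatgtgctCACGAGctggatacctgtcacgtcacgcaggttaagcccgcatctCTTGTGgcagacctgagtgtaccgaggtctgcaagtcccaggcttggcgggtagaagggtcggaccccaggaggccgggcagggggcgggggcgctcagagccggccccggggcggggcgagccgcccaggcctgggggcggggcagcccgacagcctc
In Hes5 (chr4:154960673-154960922, plus strand), capitals mark GTGGGAA on either strand, the high-affinity RBPJ motif.
Hes5: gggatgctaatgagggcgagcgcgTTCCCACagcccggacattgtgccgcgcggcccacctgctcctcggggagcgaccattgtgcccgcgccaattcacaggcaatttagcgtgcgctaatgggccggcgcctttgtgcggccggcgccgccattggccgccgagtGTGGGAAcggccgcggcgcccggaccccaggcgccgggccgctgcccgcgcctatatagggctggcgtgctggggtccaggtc

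The RBPJ motif was in 5.42% of the 32851 windows of this length in the table and in 0 of the 7 members found there. The target genes Hes1, Hey1 and Heyl had no window there and were not searched, so Nrarp was the only target gene read. The RBPJ motif was in 6 of 54 other pathway genes, among them Hes5, Hey2 and Lfng. The N-box was in 36.7% of all windows and in 21 of the 54 other pathway genes. It was in 5 of the 7 members, namely Nrarp, Notch1, Notch2, Notch3 and Dll4. These are matches of letters in a short window, and the members that hold an N-box included genes higher (Dll4, Notch2) and lower (Notch1, Notch3, Nrarp) in VEGFD arrays by their mean. Hes5, shown for its sites, had array signals of 12.2 and 16.8 in VEGFD arrays, against 15.99 and 28.1 in Apex arrays, below the filter by its mean. Hey2, with 16.6 and 10.3 in VEGFD arrays and 11.5 and 19.1 in Apex arrays, was dim as well.

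The rest of the pathway was read from 9 lists by function, 74 genes in all, of which 69 had a probe set of their own and 58 were tested. In limma 0 of the 58 passed, with 23 higher and 35 lower in VEGFD arrays and a median log2 change of -0.06. At an unadjusted p under 0.05 there were 2 of the 58, Dlk1 and Mfap5, against 5.7% of all tested genes. No overlap between groups was found for 22 of them (37.9%, against 38.5% of all tested genes), and 1 was at least 2-fold apart (1.72%, against 3.88%).

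That gene was Dlk1, which encodes a Delta-like protein that lacks the usual receptor-binding part and marks fat cell precursors. Its signals were 56.3 and 33.4 in VEGFD arrays, against 157 and 107 in Apex arrays. Both VEGFD values lay well below both Apex values, with a log2 change of -1.29 ± 0.33 and a limma adjusted p of 0.823. The change ran from -1.56 to -1.01 with an array left out, and it was -0.84 with a pseudocount of 64 and -0.69 with averaged probe sets. The 6 measured fat cell markers summed to 3852 and 3126 in VEGFD arrays, against 6346 and 8118 in Apex arrays, and their part in the Dlk1 value was not tested. Of the 6 genes listed as non-canonical ligands, 2 were higher and 4 lower, with a median of -0.60. Mfap5, a microfibril gene whose product binds Notch1 in culture, had 5741 and 5476 in VEGFD arrays, against 4144 and 2366 in Apex arrays (0.84 ± 0.31), and Mfap2 had 0.16 ± 0.31.

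Other canonical ligands were dim. Jag2, which encodes Jagged-2, had 29.9 and 27.8 in VEGFD arrays, against 40.7 and 79.4 in Apex arrays, a log2 change of -0.71 ± 0.35 without overlap. Dll1, which encodes Delta-like 1, had 39.4 and 23.1 in VEGFD arrays, against 25.6 and 36.2 in Apex arrays, and a change near 0. Jag2 and Jag1 were thus both lower by their means, while Dll4 was higher. Mib1 and Mib2, which encode ubiquitin ligases that ligands need for endocytosis, had log2 changes of -0.02 ± 0.22 and 0.04 ± 0.33.

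Of the 5 tested genes that put sugars on the receptors, 4 were lower and 1 higher, with a median of -0.39, and 0 passed. No overlap was found for 4 (80%, against 38.5% of all tested genes), and the smallest adjusted p in limma was 0.823. Lfng, the lunatic fringe gene, whose product tunes the response to Delta-like against Jagged ligands, had 87.8 and 74.4 in VEGFD arrays, against 127 and 91.6 in Apex arrays (-0.36 ± 0.28). With averaged probe sets the change of Lfng was -0.0018. Poglut1, the O-glucosyltransferase gene, had -0.51 ± 0.30, and Eogt, an O-GlcNAc transferase gene, 0.49 ± 0.25. Among the proteases, Adam10, which makes the first cut in ligand-bound receptors, had 1595 and 1270 in VEGFD arrays, against 1753 and 1482 in Apex arrays (-0.18 ± 0.23), and Psenen, a gamma-secretase subunit gene, had -0.10 ± 0.22. Of these 8 tested genes 4 were higher and 4 lower, and 1 (12.5%) did not overlap.

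Rbpj, the DNA-binding partner of all Notch receptors, had 1166 and 466 in VEGFD arrays, against 917 and 721 in Apex arrays. The 2 VEGFD arrays enclosed both Apex arrays, and the log2 change was -0.13 ± 0.46, or 0.51 with VEGFD replicate 2 left out and -0.78 with VEGFD replicate 1 left out. Its corepressor genes Ctbp1 and Hdac1 had 0.00 ± 0.21 and 0.41 ± 0.27. Over the 12 tested genes of the nuclear complex, 7 were higher and 5 lower, with a median of 0.01.

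Of 13 tested genes for receptor turnover and antagonists, 3 were higher and 10 lower, with a median of -0.16. Numb, which encodes an inhibitor that sends receptors for breakdown, had 309 and 313 in VEGFD arrays, against 292 and 290 in Apex arrays (0.09 ± 0.22). Nedd4, a ubiquitin ligase gene, had 2373 and 2132 in VEGFD arrays, against 2393 and 6516 in Apex arrays, a change of -0.81 ± 0.48 that was -0.089 without Apex replicate 2. Aak1, a kinase gene of endocytosis, had -0.17 ± 0.21. Dtx4, a Deltex ubiquitin ligase gene chosen after its values were seen, had 240 and 42.6 in VEGFD arrays, against 226 and 310 in Apex arrays. Its change was -1.20 ± 0.70 on all arrays, -0.13 without VEGFD replicate 2, and -2.26 without VEGFD replicate 1, where it passed in limma (adjusted p = 0.0192) with no spread between VEGFD arrays in the fit.

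Among other Hes and Hey genes 1 of 6 was tested, Hes6, at -0.42 ± 0.42. Vessel genes known to respond to Notch had 3 of 6 tested genes higher and 3 lower. Efnb2, which encodes ephrin-B2, a marker of arteries and lymphatic valves, had 462 and 667 in VEGFD arrays, against 319 and 992 in Apex arrays. The Apex arrays enclosed both VEGFD arrays, and the change of -0.02 ± 0.55 became 0.77 when Apex replicate 2 was left out and -0.82 when Apex replicate 1 was. Ccnd1, the cyclin D1 gene, which many signals drive, had 4143 and 4646 in VEGFD arrays, against 5380 and 7137 in Apex arrays (-0.50 ± 0.23).

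**Figure D5:**
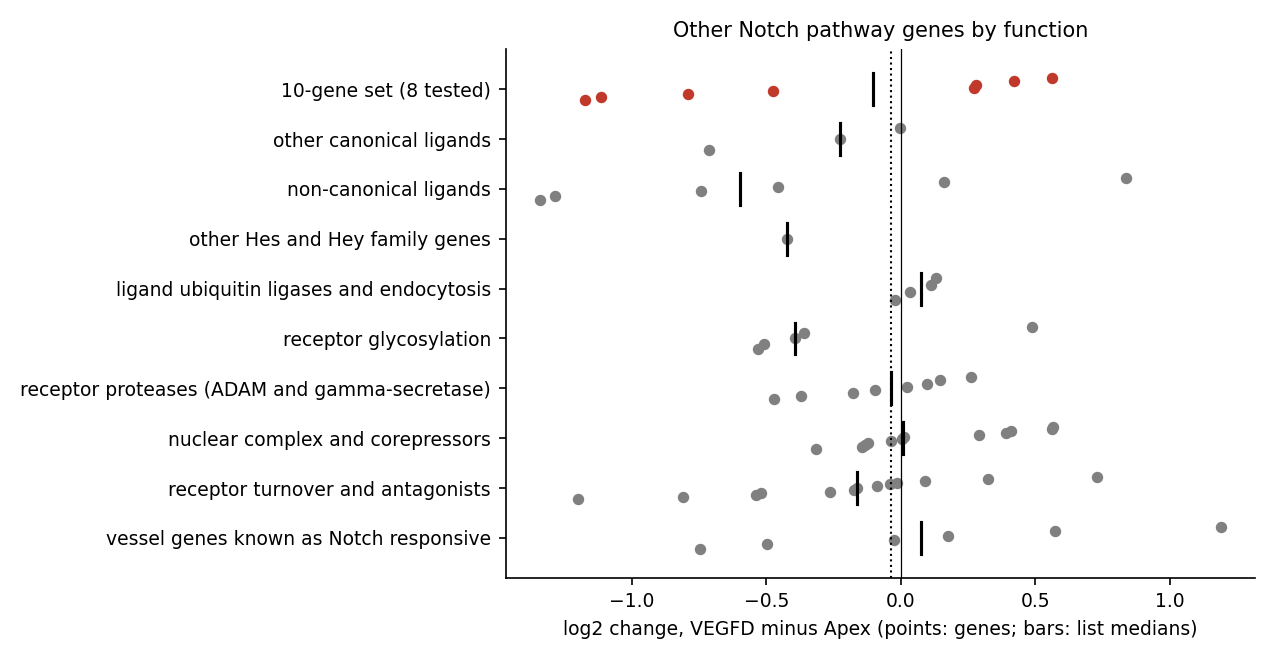
Log2 change, VEGFD minus Apex, of each tested gene in the 10-gene set (red) and in the lists of other Notch pathway genes (grey), with a bar at the median of each list and a dotted line at the median of all tested genes, -0.04. List medians run from -0.60 (non-canonical ligands) to 0.07, and no gene passed the limma test.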

How the data were processed

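Values were 1 deposited intensity per probe set and array on a linear scale, from 0.0265 to 15171. The software that made them is not given in the sources read, and the values show each array scaled to a 2% trimmed mean of 150. The median signal per array was 23.8 to 30.4. No detection calls were used, and the number of arrays limits the precision. Of 45101 probe sets, 64 were controls, 34945 had 1 symbol, 932 had several and 9160 were unnamed here. All 10 member gene IDs were found in the GRCm38.p6 table, whose coordinates are not those of the array. Promoter sequences matched 7 members, and Hes1, Hey1 and Heyl had none.

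The comparison used limma 3.58.1 in R 4.3.3 (lmFit, eBayes with intensity trend) on log2(signal + 16), two-sided, with Benjamini-Hochberg adjustment over 11677 genes and a threshold of 0.05. The procedure was tested on simulated data. Named were all members, a fixed set of pathway genes where measured, the 2 brightest of each list, and genes past the threshold or 2-fold apart without overlap. Members and lists were chosen with earlier results of these data known. Alternatives covered scaling, pseudocount, filter, probe set choice, variance trend, replicate number as a block, and each array left out.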

Additional observations from a re-analysis of the deposited data

How the results depend on the processing

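Of 95 values for the 8 tested members under the alternatives, 93 kept their direction, and 0 passed the threshold where all 4 arrays were kept. The exceptions in direction were Notch2 with the mean of all probe sets (-0.30) and Nrarp, which ran from -2.32 to 0.087 with an array left out. For members and other genes, the filter, variance trend and replicate block leave the log2 change as it was, so no direction could change there. Nor could it for Notch3, Jag1, Dll4 and Heyl with an array left out, since their groups do not overlap. The correlation of same-numbered arrays' deviations was 0.20 over 11677 genes, and the labels do not say that numbers mark a shared source. With the replicate block 6 genes passed in limma and no member or other pathway gene did; Jag1 had an adjusted p of 0.501 and Notch3 of 0.545. Genes past the threshold ran from 0 to 372 with an array left out (372 without VEGFD replicate 1, 4 without VEGFD replicate 2), and pathway genes from 0 to 1. Genes 2-fold apart were 231 with a pseudocount of 64, 226 with the stricter filter, and 442 to 1348 with an array left out (1348 without VEGFD replicate 1, 965 without Apex replicate 1). Members 2-fold apart were 0 with a pseudocount of 64, the stricter filter or the mean of all probe sets, and 0 to 3 with an array left out; pathway genes were 0 in the same settings and 1 to 9. Of the members, 2 were tested with the stricter filter and 5 with averaged probe sets. Of 278 values for the 22 other named genes, 25 changed sign, over 10 genes. With medians centred these were Dll1 (0.12), Mib1 (0.10), Psenen (0.027) and Efnb2 (0.10); with quantile normalization Dll1 (0.12) and Ctbp1 (-0.016); with a pseudocount of 64 Dll1 (0.0020); and with averaged probe sets Mfap2 (-0.049), Mib1 (0.10), Adam10 (0.25), Rbpj (0.31) and Efnb2 (0.26). With an array left out the ranges were -0.25 to 0.25 for Dll1, -0.14 to 0.47 for Mfap2, -0.99 to 0.15 for Hes6, -0.10 to 0.054 for Mib1, -0.27 to 0.35 for Mib2, -0.23 to 0.037 for Psenen, -0.78 to 0.51 for Rbpj, -0.051 to 0.056 for Ctbp1 and -0.82 to 0.77 for Efnb2. The causes were not tested, beyond the smaller number of genes or arrays that a filter or an omission leaves.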
